A study of Mus musculus with 2 samples.

Results

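Blood cells and the resident immune cells of the brain carry their own set of microRNAs (miRNAs), and 8 of these were followed in embryonic mouse midbrain. The members were chosen by gene symbol, as 3 miRNA genes known from red cells (Mir451a, Mir144 and Mir486) and 5 known from white cells and microglia (Mir223, Mir155, Mir150, Mir146 and Mir142), out of 1973 miRNA genes in the deposited tables. The samples are 2 biological replicates of whole midbrain from B6NCrl embryos at 15.5 days of development, with no treatment and no second tissue. Replicate 2 was pooled from 62 embryos and replicate 1 from 78, males and females together, and the labels call the embryos healthy. Per the labels, RNA shorter than 30 bases entered the libraries. The labels do not say whether blood was washed from the tissue.

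A miRNA is cut from a hairpin transcript and then guides an Argonaute protein to messenger RNAs that pair with its seed, the bases near its 5′ end. Circulating red cells lose most other RNA and keep a few miRNAs at high level. Microglia, the macrophages of the brain, enter it from the yolk sac during embryonic life and share many miRNAs with white cells of the blood. In a bulk sample, fewer cells of a type and less of the miRNA per cell cannot be told apart.

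The mature sequences of the members are shown because they let each gene be told from its relatives. They come from RefSeq (GRCm38.p6), are written 5′ to 3′, and have the seed, bases 2 to 8, in capitals. The RefSeq table held a mature sequence for 7 of the 8 members. Mir486 and the 5′ arm of Mir150 had none and are named only, so the statements on seeds below do not cover them. Counts are per gene and do not tell the arms of a hairpin apart.
mmu-miR-451a: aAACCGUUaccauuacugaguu
mmu-miR-144-3p: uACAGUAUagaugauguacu
mmu-miR-223-3p: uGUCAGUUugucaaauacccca
mmu-miR-155-5p: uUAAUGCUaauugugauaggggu
mmu-miR-150-3p: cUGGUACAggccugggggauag
mmu-miR-146a-5p: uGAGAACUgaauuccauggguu
mmu-miR-142a-5p: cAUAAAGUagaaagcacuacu
mmu-miR-142a-3p: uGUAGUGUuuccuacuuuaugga
No pair of these sequences has the same seed. Among all mature miRNAs of the table, only mmu-miR-146b-5p of Mir146b shares one of these seeds, that of mmu-miR-146a-5p.

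Reads on the gene strand numbered 5752476 in replicate 2 and 3429704 in replicate 1. Levels are counts for every 1000000 of these reads (CPM), so a single read counts as 0.174 CPM in replicate 2 and as 0.292 CPM in replicate 1. Intervals are exact at 95% and cover counting error only. Of 8 genes listed as neuronal 7 reached 1 CPM in both libraries, and the list summed to 20218 and 18754 CPM in replicates 2 and 1 with Mir137 the highest at 11585 and 10800 CPM. The copies Mir124a-1, Mir124a-2 and Mir124a-3 averaged 3.69, 3.26 and 0.552 CPM, levels that leave out reads with several mapping places. Mir126a of blood vessel endothelium had 21568 CPM in replicate 2 and 24909 CPM in replicate 1.

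All 8 members were counted in both libraries, and together they were a small part of the midbrain profile. Their sum was 814 CPM in replicate 2 and 852 CPM in replicate 1, or 0.0833 ± 0.00269% of counts (SD, n = 2). That sum was 3.78% of the count of endothelial Mir126a in replicate 2 and 3.42% in replicate 1. By mean level the members stood between place 167, reached by Mir142, and place 282, held by Mir486, among the genes of the table. Their median of the mean level was 92.7 CPM, beside a median of 72.3 CPM over the 443 genes with at least 1 CPM in both libraries.

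**Figure D1:**
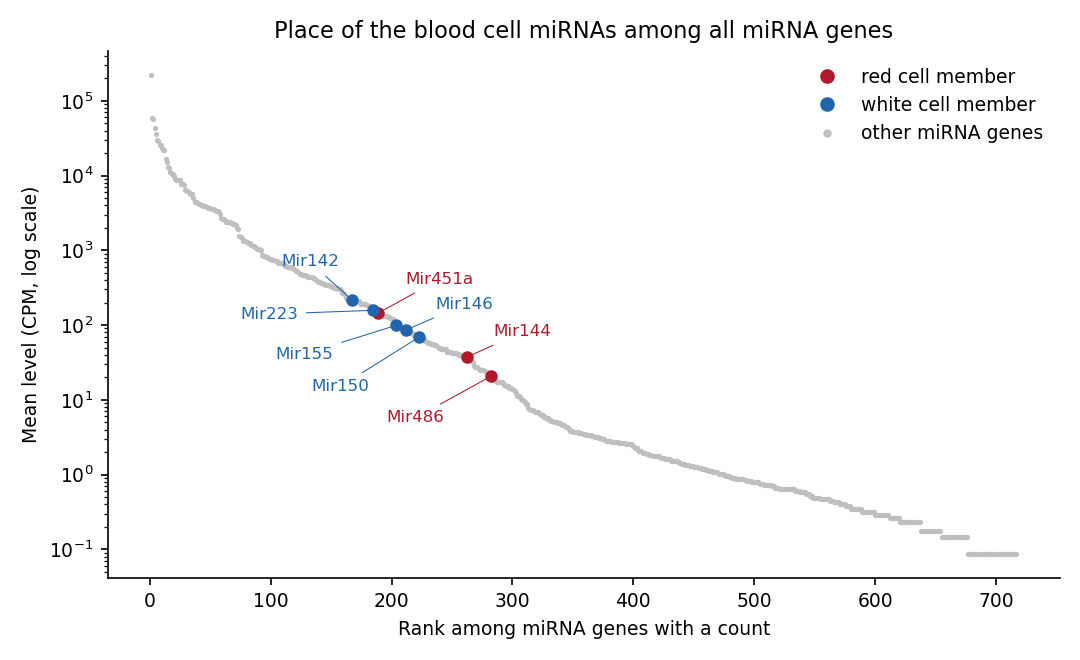
Mean level over the 2 libraries (CPM, log axis) against rank for every miRNA gene with a count, with red cell members in red and white cell members in blue. The members lie between place 167 and place 282, from 218 CPM for Mir142 down to 20.5 CPM for Mir486.

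Of the red cell members, Mir451a was the most counted. Mir451a makes the chief miRNA of mature red cells, whose hairpin is cut by Argonaute 2 and not by Dicer. It had 153 CPM in replicate 2 (interval 143 to 163) and 137 CPM in replicate 1 (125 to 149.7), from 880 and 469 reads. The libraries were close, and their intervals overlap. Its hairpin of 72 bases on chromosome 11 at 78073170 to 78073241 on the plus strand (mm10) is shown with the mature miRNA in capitals, which runs from base 17 to base 38, so that a reader can see the single mature product reach into the loop.
Mir451a hairpin: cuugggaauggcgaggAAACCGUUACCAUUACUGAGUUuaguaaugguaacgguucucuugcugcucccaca

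Mir144 lies 99 bases upstream of Mir451a on the same strand, at 78073005 to 78073070, and is known to share its primary transcript, which the red cell factor GATA1 turns on. The hairpin is shown for comparison, with a mature miRNA from each arm in capitals.
Mir144 hairpin: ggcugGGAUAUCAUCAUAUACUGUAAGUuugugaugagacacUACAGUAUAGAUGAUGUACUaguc
Mir144 had 33.4 CPM in replicate 2 (28.8 to 38.4) and 40.8 CPM in replicate 1 (34.3 to 48.2), from 192 and 140 reads. Mir451a therefore exceeded its neighbour by 4.58 times in replicate 2 (interval 3.92 to 5.39) and by 3.35 times in replicate 1 (2.77 to 4.08). The libraries differ in this ratio, 3.97 ± 0.872 (SD, n = 2). The counting intervals overlap slightly, but such overlap does not show equal ratios, and the difference was not tested. Neither gene overlaps an annotated gene other than miRNA genes on its own strand.

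Mir486, which lies in an intron of Ank1, a gene for a protein of the red cell membrane skeleton, was the lowest member. It is at 23142555 to 23142682 on the plus strand of chromosome 8. It had 21.6 CPM in replicate 2 (interval 17.9 to 25.7) and 19.5 CPM in replicate 1 (15.1 to 24.8), from 124 and 67 reads. Mir451a stood above it by 7.10 times in replicate 2 and 7.00 times in replicate 1. Of its 109 stretches of 20 bases, 6 also occur in Mir3107, which is annotated on the facing strand of the same place and was not analysed here. Reads with several places in the genome stand in a row of their own and count for no gene. The share of stretches is not a share of reads, since reads need not fall evenly along a row. Reads from the shared stretches would be missing from the count of Mir486, so its level is uncertain and may be too low.

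Mir486 is also known from skeletal and heart muscle. The muscle list had 71.1 CPM in replicate 2 and 35.6 CPM in replicate 1 over 6 genes with a row, most of it Mir208b at 47.6 and 19.0 CPM. Mir206 had 16.0 and 11.7 CPM and Mir208a 7.48 and 4.96 CPM in replicates 2 and 1. The other listed genes with a row, Mir1a-1, Mir133a-1 and Mir133a-2, had 0 counts. They are numbered copies, and reads with several mapping places count for no gene, so these zeros set no limit on the level of their miRNAs. Mir208b was nearly as high as or higher than Mir486 in the libraries, and its part in the count of Mir486 was not tested.

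Among the white cell members Mir142 was the highest, read from the row of the gene that faces it. Mir142 is expressed across the blood lineages and is often used as a mark of blood cell origin. That row is Mir142b, annotated on the minus strand of chromosome 11 at 87756841 to 87756955. All reads of that row, 1207 in replicate 2 and 778 in replicate 1, lay on the opposite strand, where Mir142 is annotated at 87756864 to 87756927 in an intron of Mir142hg. Mir142b itself had 0 reads in both libraries, below the floor of 3 counts, which is 0.522 CPM in replicate 2 and 0.875 CPM in replicate 1. The hairpins are shown so that the facing genes can be set side by side, each read along its own strand and with the mature miRNAs in capitals.
Mir142 hairpin: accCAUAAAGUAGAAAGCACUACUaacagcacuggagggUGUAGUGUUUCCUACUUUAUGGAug
Mir142b hairpin: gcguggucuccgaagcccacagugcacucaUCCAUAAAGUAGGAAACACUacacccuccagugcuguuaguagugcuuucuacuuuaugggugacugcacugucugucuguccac
The Mir142 hairpin of 64 bases is contained whole in the other strand of the 115 bases of Mir142b. Of 319 genes with at least 10 CPM over both strands, 9 had all their reads on the opposite strand in both libraries, and Mir142b was among them. Another 273 had no opposite read.

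Read from that column, Mir142 had 210 CPM in replicate 2 (interval 198 to 222) and 227 CPM in replicate 1 (211 to 243). Mir223, a regulator of granulocyte and monocyte maturation that also occurs in platelets and microglia, followed with 155 CPM in replicate 2 (145 to 165) and 161 CPM in replicate 1 (148 to 175). The intervals of these 2 genes do not overlap in either library, and Mir142 stood above Mir223 by 1.36 times in replicate 2 and 1.41 times in replicate 1. Mir223 lies on the X chromosome at 96242817 to 96242926, in an exon of the noncoding gene F630028O10Rik.

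Mir155, Mir146 and Mir150 were lower than Mir142 and Mir223 in both libraries. Mir155, which is switched on in activated macrophages, microglia and lymphocytes, had 97.2 CPM in replicate 2 and 102 CPM in replicate 1. It lies in an exon of its host transcript Mir155hg on chromosome 16 at 84714140 to 84714204. Mir146, the gene of miR-146a, damps signalling through NF-κB and had 77.5 CPM in replicate 2 (interval 70.5 to 85.1) and 94.5 CPM in replicate 1 (84.5 to 105). It is on the minus strand of chromosome 11 at 43374397 to 43374461. Mir150, abundant in mature lymphocytes, where it restrains the transcription factor Myb, had 67.3 CPM in replicate 2 (60.7 to 74.3) and 71.4 CPM in replicate 1 (62.8 to 81.0). It is on chromosome 7 at 45121757 to 45121821. Mir155 and Mir150 were at nearly the same level in both libraries, while the libraries were farther apart for Mir146.

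Mir146b, the paralogue of Mir146 on chromosome 19 at 46342762 to 46342870, was scarce. Its main mature form is shown because it equals mmu-miR-146a-5p in 20 of 22 bases, the whole seed included.
mmu-miR-146b-5p: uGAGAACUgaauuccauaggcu
Mir146b had 2.43 CPM in replicate 2 and 2.62 CPM in replicate 1, from 14 and 9 reads. Mir146 exceeded it by 31.9 times in replicate 2 (interval 18.8 to 58.7) and 36 times in replicate 1 (18.7 to 79.4). Of the 46 stretches of 20 bases in Mir146, 2 also occur in Mir146b, so a part of the reads of either gene may have been given to neither. The other 6 members with printed sequences shared no stretch of 20 bases with another miRNA transcript.

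**Figure D2:**
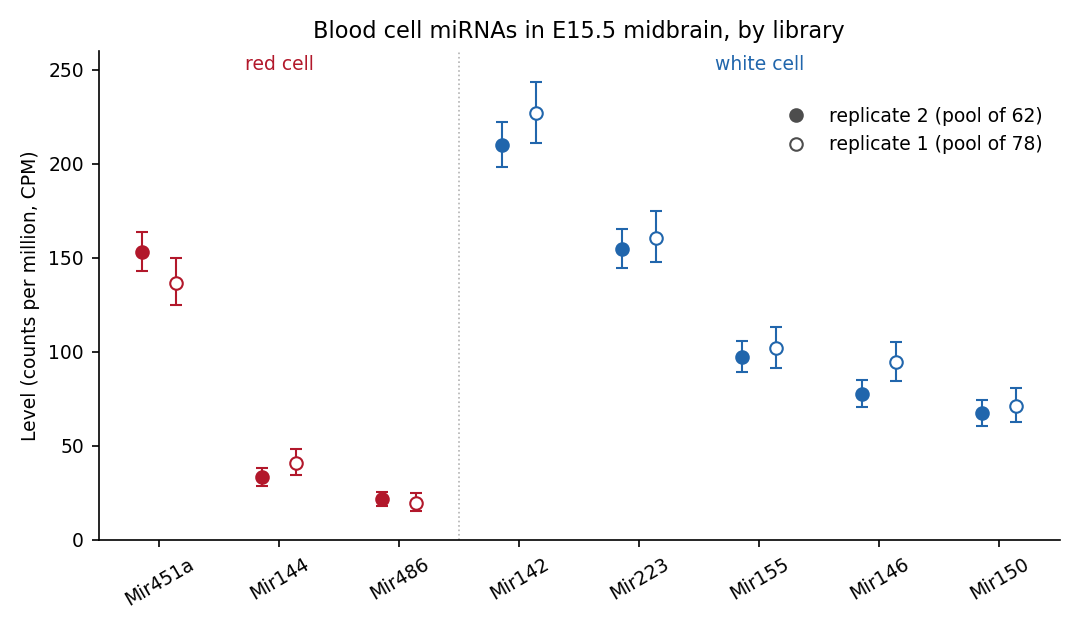
Level of each member in replicate 2 (filled) and replicate 1 (open), in CPM on a linear axis from 0, with exact 95% counting intervals. Red cell members are on the left and white cell members on the right, and Mir142 is read from the strand opposite to Mir142b. Mir142 is highest at 210 and 227 CPM, and Mir486 lowest at 21.6 and 19.5 CPM.

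In order of mean level the members were Mir142 (218 ± 12.03 CPM, SD, n = 2), Mir223 (158 ± 4.32 CPM), Mir451a (145 ± 11.5 CPM), Mir155 (99.5 ± 3.24 CPM), Mir146 (86.0 ± 11.98 CPM), Mir150 (69.4 ± 2.94 CPM), Mir144 (37.1 ± 5.26 CPM) and Mir486 (20.5 ± 1.43 CPM). This order was the same in both libraries. Of the neighbours in it, Mir223 and Mir451a lay within their spread of each other, as did Mir155 and Mir146. The highest member stood above the lowest by 9.73 times in replicate 2 and 11.6 times in replicate 1. The lowest place and this range rest on Mir486, whose count may lack reads shared with Mir3107. Replicate spread does not cover a bias between miRNAs that both libraries have in common, so the order is one of counts.

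The 3 red cell members summed to less than the 5 white cell members in both libraries. Red cell members came to 208 CPM in replicate 2 and 197 CPM in replicate 1, or 0.0203 ± 0.000764% of counts (SD, n = 2). White cell members came to 606 CPM in replicate 2 and 655 CPM in replicate 1, or 0.0631 ± 0.00345% of counts. The ratio of red over white was 0.343 in replicate 2 (interval 0.321 to 0.366) and 0.301 in replicate 1 (0.276 to 0.328). With Mir142 left out, the white cell sum was 397 CPM in replicate 2 and 428 CPM in replicate 1, and red over white was 0.524 and 0.460. An exact permutation test that flips the sign of the difference within each of 2 libraries cannot go below a two-sided p of 0.5, so none is given. Reads with several mapping places, which may include reads of Mir486 and Mir146, are in neither sum. These sums compare chosen genes and not numbers of cells.

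Within the groups the make-up was uneven for red cells and more even for white cells. Mir451a held 73.6% of the red cell counts in replicate 2 and 69.4% in replicate 1, Mir144 16.1% and 20.7%, and Mir486 10.4% and 9.91%. Mir142 held 34.6% of the white cell counts in both libraries, and Mir223 25.5% in replicate 2 and 24.5% in replicate 1. Mir150, the lymphocyte miRNA, had the smallest white cell share, 11.1% and 10.9%. Without Mir451a the red over white ratio was 0.0914, averaged over the libraries, so most of the red cell sum was this gene.

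**Figure D3:**
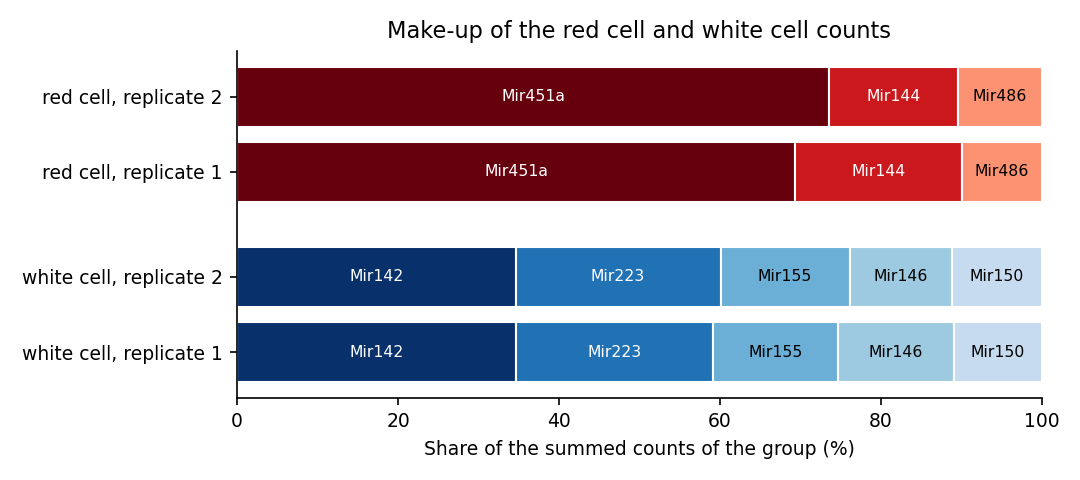
Share of each gene in the summed counts of its group (percent), for the red cell members (top pair of bars) and the white cell members (bottom pair), with replicate 2 above replicate 1. Mir451a fills 73.6% and 69.4% of the red cell bars, while Mir142, the largest white cell segment, fills 34.6% of both white cell bars.

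The pools were then compared gene by gene on TMM-scaled counts by an exact binomial test, two-sided and conditional on the sum of both libraries, adjusted by the Benjamini-Hochberg method over 718 rows. This test sets 2 libraries against each other and does not compare conditions. It called 19.8% of all rows, 9.75% higher and 10% lower in replicate 2. Of the 151 genes with a mean level of 10 to 300 CPM, a range that spans the levels of the members, it called 14.6%. Of the 8 members 1 was called, Mir146, a share of the members near that background. Mir146 was lower in replicate 2, with a log2 ratio of replicate 2 over replicate 1 of -0.31 (interval -0.53 to -0.11, adjusted p = 0.0168, exact binomial test). With a coefficient of variation of 10% between pools allowed for, edgeR's exact test called 0.418% of rows and no member, and gave Mir146 an adjusted p of 1.

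The other members did not pass. Mir144 had a ratio of the same size as Mir146 from fewer reads, at -0.32 (interval -0.65 to 0.00083, adjusted p = 0.180, exact binomial test). Mir142 was at -0.15 (interval -0.28 to -0.014), with an adjusted p of 0.125 in the exact binomial test. Mir451a and Mir486 had ratios of 0.13 and 0.10, and Mir223, Mir155 and Mir150 of -0.089, -0.099 and -0.12. In all, 2 members had ratios above 0 and 6 below, and all 8 lay within 1.3-fold of equal levels. Their median absolute log2 ratio was 0.12, beside 0.15 over the 443 genes with at least 1 CPM in both libraries. Mir451a and Mir144, although neighbours, lay on opposite sides of 0. Their counting intervals overlap slightly, and the difference between them was not tested.

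**Figure D4:**
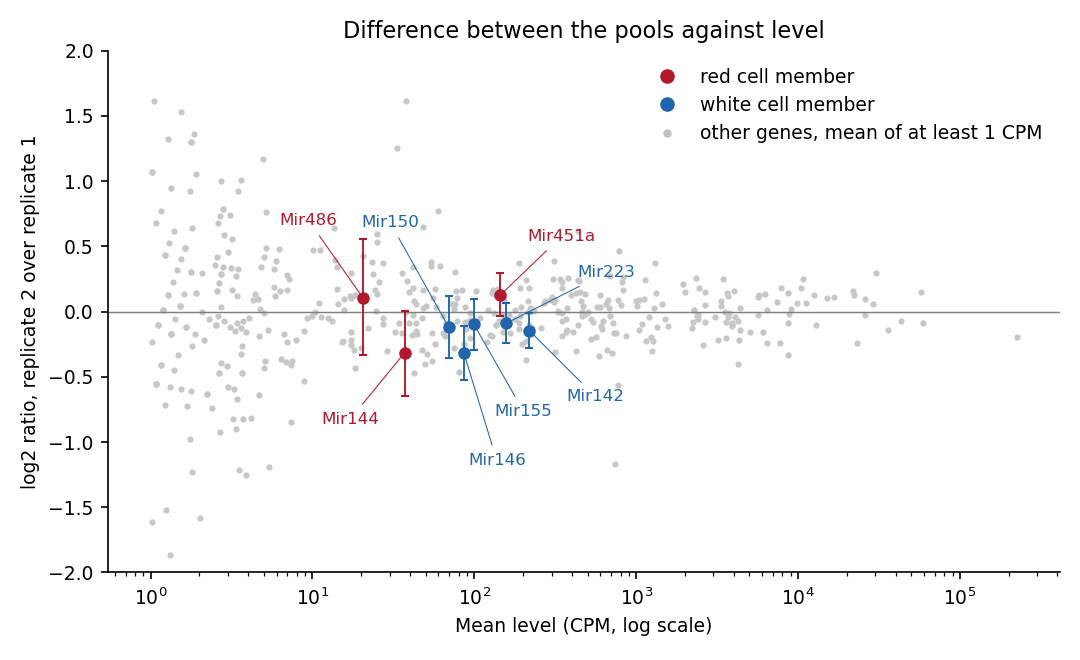
Log2 ratio of replicate 2 over replicate 1 (TMM scaling, pseudocount of 1 CPM) against mean level (CPM, log axis), with red cell members in red, white cell members in blue and exact 95% counting intervals, among 467 other genes in grey. The members lie between -0.32 and 0.13, and all intervals but those of Mir146 and Mir142 include 0.

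Markers of liver, endothelium and muscle were also compared between the pools. Hepatocyte Mir122 was measured because the fetal liver is the main site of blood formation at this stage. It was higher in replicate 2, with 76.1 CPM there and 43.2 CPM in replicate 1 (log2 ratio 0.77, adjusted p = 3.00e-08, exact binomial test). That test covers counting error only and not spread between pools. With a coefficient of variation of 10% between pools allowed for, only 0.418% of all rows were called. Whether Mir122 was among them is not given here. The other abundant liver markers were not called and had ratios below 0, Mir192 with 85.7 CPM in replicate 2 and 88.6 CPM in replicate 1 (log2 ratio -0.081) and Mir194-2 with 68.1 and 81.1 CPM (-0.28). The liver list of 4 genes, Mir122 included, had 232 CPM in replicate 2 and 213 CPM in replicate 1. Endothelial Mir126a was lower in replicate 2 (log2 ratio -0.24). The muscle markers Mir208b, Mir208a and Mir206 had log2 ratios of 1.25, 0.48 and 0.39, so that of Mir208b was larger than that of Mir122. The part of liver, endothelium or muscle in the levels of the blood cell members was not tested.

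The other miRNAs of the white cell and microglia list were scarce. Mir147, known from macrophages, had 4.35 CPM in replicate 2 and 4.96 CPM in replicate 1. Mir511, which lies in the gene of a macrophage mannose receptor, had 4.17 and 5.83 CPM. Of the 9 listed genes 8 reached 1 CPM in both libraries, the exception being Mir142b on its own strand. None of the 3 scarce genes, Mir146b included, was called between the pools.

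A wider list of 22 miRNAs that have been studied in blood cells held genes of much higher level. Of these 19 had a row under the listed symbol, all at 1 CPM or more in both libraries, with a median of the mean level of 834 CPM, beside 72.3 CPM over the 443 genes named above. The most counted were Mir17, known from dividing cells of many tissues, at 27113 CPM in replicate 2 and 24784 CPM in replicate 1, and Mir342 at 10179 and 9493 CPM. These genes are also expressed outside the blood, so their levels do not describe blood cells in this tissue. Between the pools 3 of the 19 were higher and 7 lower in replicate 2, where 9.75% and 10% of all rows were. The test calls rows with many reads at smaller ratios, and this list has a high median level. Its shares are therefore not like for like with those of all rows. Mir210, induced by low oxygen, was lower at 283 and 342 CPM (log2 ratio -0.31), and Mir22 at 3800 and 3999 CPM (-0.11).

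For each member the gene of nearest level over the 2 libraries was found by distance in log2(CPM + 1). Mir142 was nearest to Mir214 (213 CPM in replicate 2 and 223 CPM in replicate 1), and Mir223 to Mir29a (165 and 164 CPM). Mir451a was nearest to Mir301b (151 and 131 CPM), Mir144 to Mir152 (33.9 and 41.4 CPM) and Mir486 to Mir574 (21.2 and 22.7 CPM). Mir155 was nearest to Mir679, Mir146 to Mir666 and Mir150 to Mir31, at distances of 0.12, 0.049 and 0.082. With 2 libraries of a single tissue this likeness describes level only.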

How the data were processed

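Small RNA of 2 pooled midbrain libraries was measured. The authors deposited whole read counts per miRNA gene without normalization, in 3 columns (either strand, gene strand and opposite strand). Per the deposited readme text, alignment was to mm10 with GENCODE annotation M4 (aligner and counter: not given in the sources used here). All 4 rows that name no gene stayed out of library sizes. In replicates 2 and 1 they held 16.9% and 13.4% unmapped reads, 35.8% and 37.7% with several mapping places, and 3.43% and 3.57% outside genes. Of 1973 identifiers 1894 matched GENCODE M21 symbols.

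CPM were taken over sense counts, and Mir142 was read from the opposite column of Mir142b as an added row. Floors were 3 counts. The binomial test (scipy 1.17.1) used edgeR 4.0.16 TMM scaling, since 1 library per pool leaves edgeR's quasi-likelihood test without residual degrees of freedom. An adjusted p under 0.05 was a call. Alternatives were other strand columns, denominators, scalings (DESeq2 1.42.0), filters and pseudocounts, and leaving out replicates or members. Named genes were the members, facing or neighbouring genes, the gene nearest in level, and listed markers where a result turned on them. The members and lists were chosen with earlier results of these data known.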

Additional observations from a re-analysis of the deposited data

Results flagged for a closer look

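Mir486 was the member with more than a trace of reads on the strand opposite to its annotation. It had 8 such reads in replicate 2 and 7 in replicate 1, above the floor of 3 counts, in a column that its level does not use. These were 6.06% (exact interval 2.65 to 11.6) and 9.46% (3.89 to 18.5) of the reads of its row. Mir3107 is annotated on that strand. Of the other members read on the sense strand, Mir150 and Mir223 had 1 opposite read each in replicate 2, and Mir451a, Mir144, Mir155 and Mir146 had 0 in both libraries.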

How the results depend on the processing

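The summed level, the shares and the ratios kept to within the replicate spread when reads on either strand were counted. Set against all reads of a library, the 8 members came to 372 CPM, the red cell share to 0.00903% and the white cell share to 0.0282%. Without Mir142 the white cell share was 0.0412% and red over white 0.492. Red over white was 0.0914 without Mir451a and 0.429 without Mir223, below 1 throughout. Leaving out a replicate gave 814 to 852 CPM for the members, 0.0197 to 0.0208% for red, 0.0606 to 0.0655% for white, 0.301 to 0.343 for red over white, and 3.35 to 4.58 for Mir451a over Mir144. The count of genes called between the pools stayed between 141 and 152 with other scalings, a filter or reads on either strand. At a coefficient of variation of 10% it was 3, none of them a member, since that test allows for spread between pools. No log2 ratio of a member changed sign with other scalings or with reads on either strand. Other pseudocounts, the filter and the test at a coefficient of variation of 10% use the same scaled counts and could not change a sign. The call of Mir146 was lost in that test alone, with adjusted p from 0.0111 to 1 over its alternatives. No paired analysis was possible because there is a single group. Depth limits Mir486 and Mir144 most, with 67 and 140 reads in replicate 1.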
